A study of Mus musculus with 22 samples.

Results

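Valproate was compared with the group labelled NC in poly(A)-selected RNA of E14 mouse embryonic stem cells, a line grown in serum with LIF, the cytokine that keeps such cells undifferentiated. The 4 libraries were chosen by their titles and treatment labels, 2 for Valproate and 2 for NC, out of 22 libraries that also covered 9 other chromatin compounds with 2 libraries each. The labels named no genotype, dose or exposure time and no compound for NC, so whether NC cells received the solvent alone is unknown here. The labels did not say that replicates were separate cultures, so p-values measure only the spread between these samples, which may be technical. All libraries had been brought to 1 common distribution of values before deposit, and the sequencing depth of each is unknown. The stem cell identity of the libraries was checked against 8 markers, among them Pou5f1, Sox2, Nanog and Esrrb, whose values summed to 208208 and 208724 in NC and to 222700 and 229065 with Valproate.

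Valproate is a short branched-chain fatty acid used against epilepsy and bipolar disorder, and it inhibits class I and class IIa histone deacetylases, the enzymes that remove acetyl groups from histone tails. Inhibition raises histone acetylation and is known to change transcription in both directions, to alter differentiation of stem cells and to disturb closure of the neural tube in embryos. The drug is also known to act on GABA breakdown, inositol, folate and fatty acid metabolism, and genes of these pathways are described after the leading genes.

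Of 18487 genes in the table, 17275 reached a value of 10 in at least 2 libraries and were tested. Values were analysed as log2(value + 1), and the changes given are Valproate minus NC on that scale, on which changes of weakly expressed genes are understated. Calls required both a change over 2-fold and p under 0.05 in limma after Benjamini-Hochberg (BH) adjustment, in 1 fit of all 22 libraries. Valproate changed 912 genes (5.28% of those tested), 471 of them up (2.73%) and 441 down (2.55%). The median of the rising calls was 1.79 and that of the falling calls -1.57, beside a median of -0.02 over all tested genes. Changes over a log2 of 3 were found for 84 rising and 37 falling genes. The count of calls was 572 without Valproate replicate 1 and 514 without NC replicate 1. A fit of only the 4 libraries gave 75 calls, 59 up and 16 down, and 29 of them were among the 912.

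At high values falls outnumbered rises. Among the 5707 tested genes with a mean over all 22 libraries between 1000 and 10000, 22 rose and 64 fell, and over 10000 there were 0 rises and 6 falls among 662. The lowest genes are not compared in this way, since a gene can pass the filter through its Valproate libraries alone. Of the 912 calls, 44 had a 0 in at least 1 of the 4 libraries, and for 29 rising genes both NC libraries were at 0.

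The rise or fall was then followed within each replicate number, which sets 1 Valproate library against 1 NC library. All 912 called genes moved in the same direction within number 1 and number 2, beside 70.5% of the tested genes, and a change over 2-fold within both numbers was seen for 748 of them (401 up and 347 down). Without regard to any test, 1450 genes exceeded 2-fold in the same direction within both numbers, and 102 exceeded it in opposite directions. The correlation of the within-number changes was 0.379 across the 17275 genes, which are not independent replicates. The Valproate and NC libraries of all 912 calls did not overlap, and this was true of 50.6% of all tested genes (23% up and 27.6% down). Where the groups do not overlap, the direction is necessarily the same within both numbers. The shared direction of the calls is thus not separate evidence for them.

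**Figure D1:**
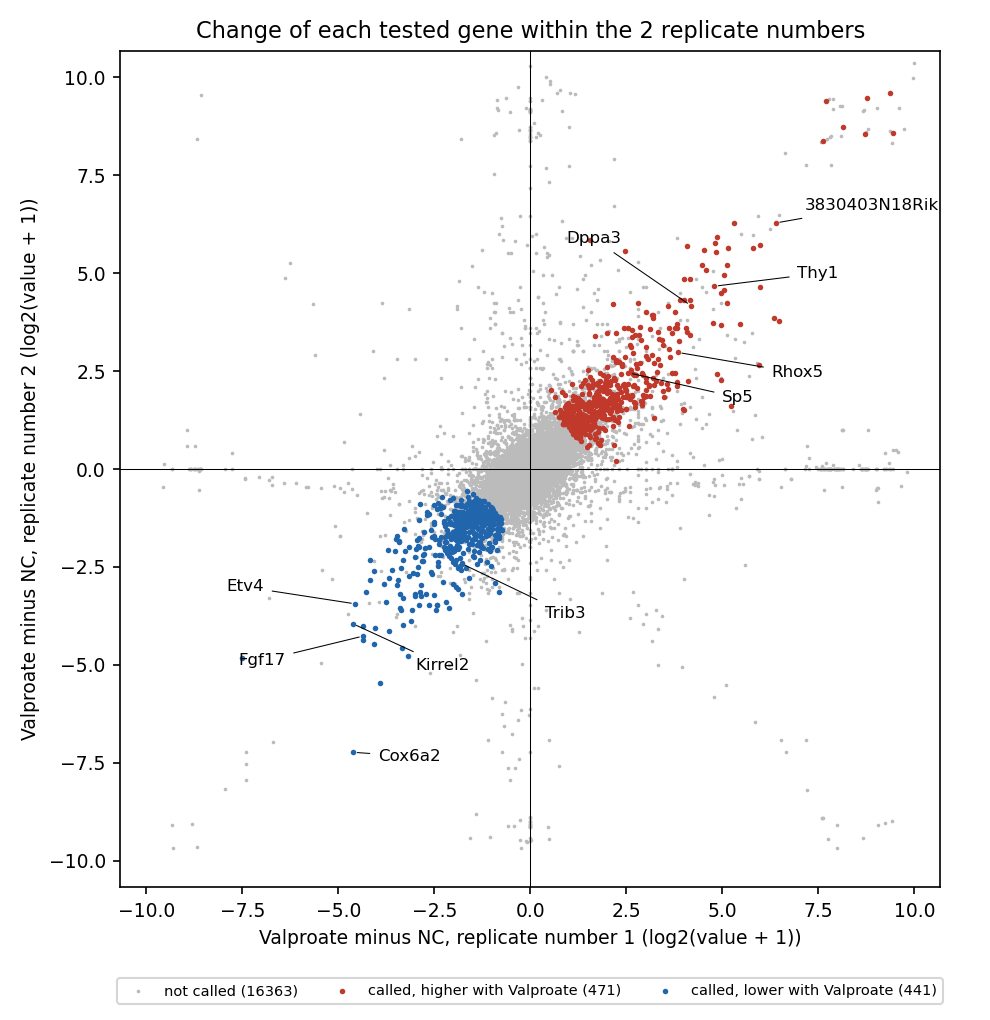
Change from NC to Valproate in log2(value + 1) within replicate number 1 (horizontal axis) and replicate number 2 (vertical axis), 1 point per tested gene, with the 471 rising calls in red, the 441 falling calls in blue and the other genes in grey. All called genes lie at the lower left or upper right, and grey points along the axes are genes that moved within only 1 number, many of them with a value of 0 in 1 library.

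The 12 largest rises above 0 in all 4 libraries, leaving out 4 gene models with numbered names, were led by an X-linked gene, a pair of neuronal receptors and cell surface genes, and the germ-cell and early-embryo gene Dppa3. Thy1 (chromosome 9, 44043384 to 44048579, plus strand), a surface glycoprotein of neurons, thymocytes and fibroblasts, was at 12 and 11 in NC against 358 and 303 with Valproate. Its log2 change was 4.73 (SE 0.42, BH-adjusted limma p 3.0e-05). Both Valproate libraries lay above the 18 libraries of the other compounds, which ran from 6 to 66. Dppa3 (chromosome 6, 122626410 to 122630272, plus strand), a maternal factor that protects the early embryo's DNA methylation, was at 194 and 160 in NC against 3544 and 2894 with Valproate. The log2 change of Dppa3 was 4.18 (SE 0.64, BH-adjusted limma p 0.00132), and its highest library under another compound was at 669. Other genes hold 31.8% of its 31-base stretches, so that the reads may be shared with copies. The calls of Thy1 and Dppa3 held under all 11 alternatives tried.

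Otog, which encodes a protein of the inner ear's gel matrices, was at 5 and 2 in NC against 170 and 138 with Valproate, while no library of another compound exceeded 29. The log2 change of Otog was 5.18 (SE 0.60, BH-adjusted limma p 0.000199). Fbln2, an extracellular matrix glycoprotein gene, was at 26 and 41 in NC against 728 and 551 with Valproate, changing on the log2 scale by 4.24 (SE 0.35, BH-adjusted limma p 1.58e-05). Both groups were separated by a wide gap for either gene, and the other compounds stayed at or below 107 for Fbln2. Dnmt3l, the catalytically inactive partner of the de novo DNA methyltransferases, was at 9 and 40 in NC against 442 and 536 with Valproate, changing on the log2 scale by 4.59 (SE 0.92, BH-adjusted limma p 0.0065). Without NC replicate 1 the change of Dnmt3l was 3.57 and no longer called, and the gene was higher still with DZNep (up to 1487). Kcnk2, a two-pore potassium channel, rose by 3.83, and Nedd9, a scaffold of focal adhesions, by 3.61. Exons of Gabra4, Dnmt3l, Kcnk2 and Nedd9 overlap a gene on the opposite strand.

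The remaining genes of the 12 had the largest changes and the least certain calls, or belonged to near-identical families. 3830403N18Rik (chromosome X, 56136572 to 56153498, plus strand), whose function is not known, was at 12 and 14 in NC against 1091 and 1163 with Valproate, changing on the log2 scale by 6.34 (SE 1.57, BH-adjusted limma p 0.0201). MS023, DZNep and Garcinol also held high means for it (621.5, 619 and 577). It was at 637 and 14 with CPTH2 and at 8 and 540 with UNC0379. With Bromosporine, OICR, IOX1 and Chaetocin it stayed at or below 15. Other genes hold 41.3% of its 31-base stretches. Dcc, a receptor for netrin in axon guidance, was at 7 and 7 in NC against 317 and 622 with Valproate. Gabra4, a subunit of the GABA-A receptor, was at 10 and 11 in NC against 321 and 727 with Valproate, inside the range of the other compounds (6 to 727). The Valproate and NC values of Dcc and Gabra4 were far apart, but replicates of the same other compound could differ as widely. DZNep replicate 1 had a Dcc value of 275 beside 6 in replicate 2, and IOX1 replicate 1 had 368 beside 6. For Gabra4, CPTH2 gave 477 in replicate 1 but 12 in replicate 2, and Garcinol gave 579 but 9. Both libraries of IOX1 (376 and 480) and of DZNep (409 and 727) were high for Gabra4. The cause of the splits was not tested. These 3 calls were lost when any of the 4 libraries was left out, with log2 changes between 6.23 and 6.44 for 3830403N18Rik, 5.31 and 6.28 for Dcc, and 4.81 and 5.99 for Gabra4. Fthl17c and Fthl17d, X-linked relatives of the ferritin heavy chain, rose by 3.68 and 3.78, and 86.8% and 94.4% of their 31-base stretches occur elsewhere, so their reads cannot be assigned with certainty.

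The 12 largest falls held a secreted growth factor and a transcription factor of the FGF pathway, 2 adjacent nephrin-family genes and genes of steroid and muscle metabolism. Fgf17 (chromosome 14, 70636203 to 70642268, minus strand), a ligand of FGF receptors, was at 874 and 805 in NC against 42 and 41 with Valproate, changing on the log2 scale by -4.30 (SE 0.34, BH-adjusted limma p 1.46e-05). The lowest library of another compound was at 165. Etv4 (chromosome 11, 101769742 to 101785371, minus strand), an ETS transcription factor induced by ERK signalling, was at 3169 and 4442 in NC against 134 and 408 with Valproate. Its log2 change was -3.997 (SE 0.44, BH-adjusted limma p 0.000149). In the other compounds Etv4 stayed between 2006 and 4765, so that the 2 Valproate libraries stood alone.

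Kirrel2 (chromosome 7, 30447534 to 30457690, minus strand) and Nphs1 (chromosome 7, 30458315 to 30487223, plus strand) encode nephrin-like adhesion proteins of the immunoglobulin superfamily and are neighbours transcribed in opposite directions. Kirrel2 was at 1798 and 1449 in NC against 72 and 93 with Valproate, changing on the log2 scale by -4.29 (SE 0.38, BH-adjusted limma p 3.23e-05). Nphs1, which encodes nephrin of the kidney's filtration barrier, was at 2608 and 2175 in NC against 191 and 205 with Valproate, changing on the log2 scale by -3.58 (SE 0.34, BH-adjusted limma p 5.53e-05). Both genes dropped to a small part of their NC value in either Valproate library. Nphs1os, antisense to Nphs1, was called down as well, and reads of the pair cannot be told apart without strand. Kirrel2 was also low with Bromosporine (a mean of 174.5) and Nphs1 with DZNep (a mean of 213). The calls of Fgf17, Kirrel2 and Nphs1 held under all 11 alternatives. Genes named below whose exons overlap a gene on the opposite strand are Lef1, Pdgfra, Bmp4, Map2, Zcwpw1, Hoxa7, Acsl6, Atf5, Fkbp10, Loxl3, Shmt2, Cdkn1a, Pou5f1, Psph, Rarb and Axin2.

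Further falls of the 12 were Cox6a2, Ltbp3, Serpinf1, Ubap1l, Hsd17b1, Tgfbi and Rapgef3. Cox6a2, the heart and muscle isoform of a cytochrome oxidase subunit, was at 317 and 299 in NC against 12 and 1 with Valproate. Ltbp3, which binds latent TGF-beta, was at 286 and 205 in NC against 13 and 9 with Valproate, and Hsd17b1, an enzyme of estradiol synthesis, at 162 and 187 and at 15 and 7. The log2 changes of these 7 genes ran from -5.92 (Cox6a2) to -3.64 (Rapgef3), and their BH-adjusted limma p from 5.97e-05 (Rapgef3) to 0.00197 (Tgfbi). Leaving out any 1 library did not end these 7 calls. Means of Serpinf1 with DZNep (8.5) and Bromosporine (10.5) were below that with Valproate (12.5), and so was that of Tgfbi with DZNep (38.5 against 39.5). Cox6a2 reached 9 in a DZNep library and 11 in a Bromosporine library, and Ubap1l 71 in a DZNep library. Ltbp3, Hsd17b1 and Rapgef3 were lower in both Valproate libraries than in all 20 other libraries. Exons of Cox6a2, Ltbp3 and Rapgef3 overlap a gene on the opposite strand. Fewer cells with a transcript and less of it per cell cannot be told apart in bulk RNA, here and below.

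**Figure D2:**
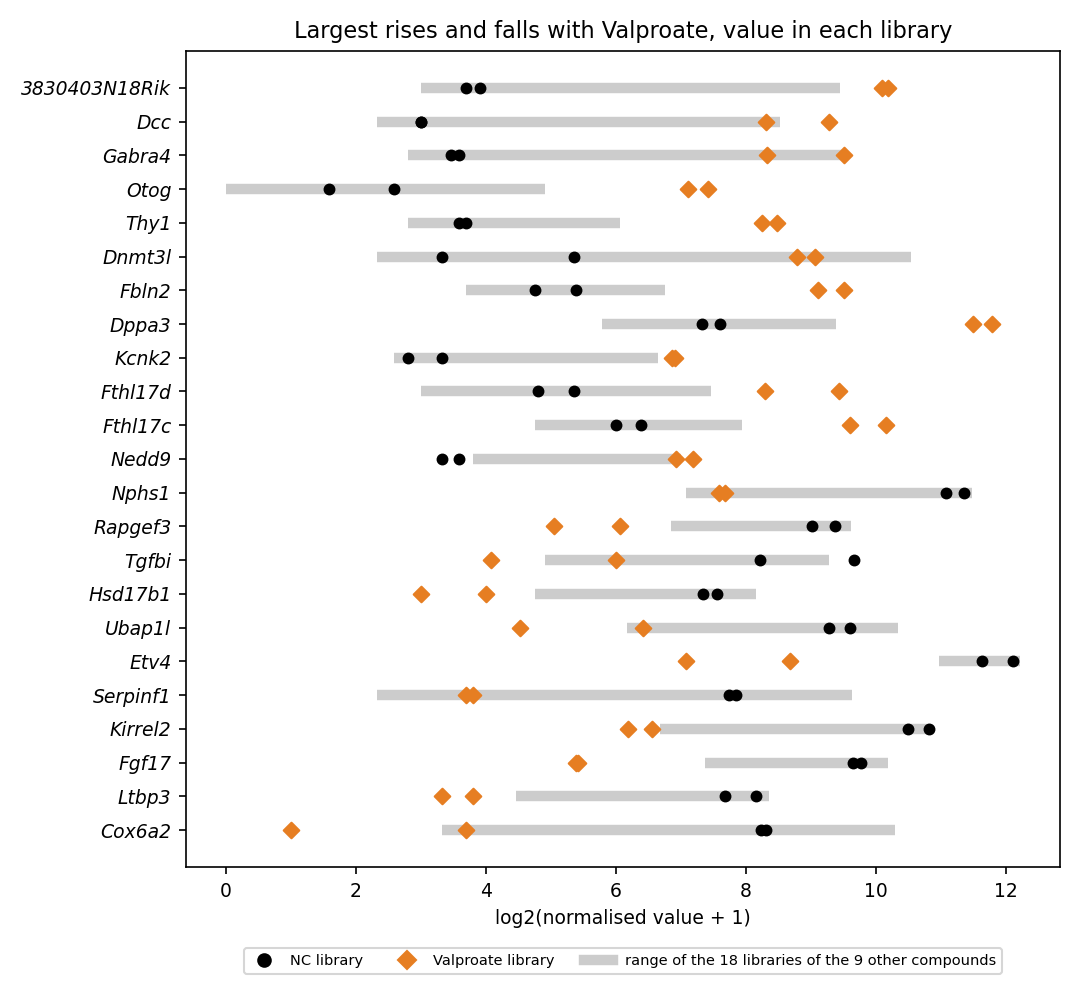
Values of the 12 largest rises (upper rows) and 11 of the 12 largest falls (lower rows) as log2(normalised value + 1), with black circles for the 2 NC libraries, orange diamonds for the 2 Valproate libraries and grey bars for the range of the 18 libraries of the 9 other compounds. Thy1, Dppa3, Fbln2 and Otog with Valproate lie to the right of the grey bar, and Fgf17, Etv4 and Rapgef3 to the left of it.

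FGF ligands signal through ERK to induce Etv4, Etv5, the Sprouty and Spred inhibitors and the Dusp phosphatases, which feed back on the pathway and in embryonic stem cells accompany the exit from self-renewal. Of 21 pathway and immediate early genes tested, 4 fell (19%) and 1 rose (4.76%). The list's median change was -0.29 beside -0.02 over all genes, but it was only -0.12 within number 1 and -0.05 within number 2. Among all 17275 tested genes 2.55% fell and 2.73% rose, with 8978 changes negative and 8126 positive. These all-gene figures apply to this list and to every list below. Dusp6, the phosphatase that removes the active mark of ERK, was at 148 and 200 in NC against 61 and 67 with Valproate, changing on the log2 scale by -1.41 (SE 0.20, BH-adjusted limma p 0.000862). Spry4, an inhibitor of receptor tyrosine kinase signalling, was at 26 and 32 in NC against 4 and 2 with Valproate, changing on the log2 scale by -2.95 (SE 0.44, BH-adjusted limma p 0.00107). Etv4, Dusp6 and Spry4 were lower in both Valproate libraries than in all 20 other libraries. Atf3, a stress and growth factor response gene, was the fourth to fall, a call lost without Valproate replicate 2 (-0.74) or NC replicate 1 (-1.18). Not every target followed, since Etv5 was at 19257 and 18790 in NC against 13634 and 15640 with Valproate (BH-adjusted limma p 0.0884), Spry2 at 475 and 406 and at 920 and 556, and Egr1 at 17 and 25 and at 20 and 20. These 3 genes and Atf3 were chosen for the text after their values were seen. Ier3, an immediate early gene, rose by 1.33, a call that was lost without any 1 of the 4 libraries (changes of 1.19 to 1.48). The number of calls in the list was 3 without NC replicate 1.

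The integrated stress response couples amino acid shortage and other stresses, through the transcription factor Atf4, to genes of amino acid supply and serine and one-carbon metabolism. With Valproate 7 of its 20 tested genes fell (35%) and 0 rose, beside 2.55% and 2.73% of all tested genes. Of the 20 changes 18 were negative, beside 8978 of 17275 over all tested genes. The list's median was -0.99, with -0.73 within number 1 and -1.15 within number 2. Trib3 (chromosome 2, 152337422 to 152344032, minus strand), a pseudokinase induced by Atf4, was at 3919 and 2805 in NC against 1132 and 526 with Valproate. Its log2 change was -2.10 (SE 0.30, BH-adjusted limma p 0.000782). Shmt2, the mitochondrial serine hydroxymethyltransferase, was at 13304 and 12341 in NC against 6460 and 5568 with Valproate, changing on the log2 scale by -1.10 (SE 0.11, BH-adjusted limma p 0.000107). Atf5 fell from 3704 and 3175 to 1568 and 1065, Vldlr from 625 and 463 to 245 and 127, and Cth, the cystathionine-cleaving enzyme of cysteine synthesis, from 5607 and 4502 to 2765 and 1656. In each of these genes the lower Valproate library was replicate 2.

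Chac1, which degrades glutathione, was at 1526 and 1195 in NC against 803 and 158 with Valproate, and its call was lost without Valproate replicate 2 (a log2 change of -0.75), NC replicate 1 (-1.74) or NC replicate 2 (-2.09). Cth was lost without Valproate replicate 2 (-0.86) or NC replicate 1 (-1.07), and Shmt2 without Valproate replicate 2 (-0.99). The seventh call, Psph of serine synthesis, changed by -1.03 and was lost without Valproate replicate 2 (-0.85) or NC replicate 1 (-0.94) and by median-ratio rescaling (-0.99). Over the whole list, 12 genes were called without Valproate replicate 1 and 3 without Valproate replicate 2. Asns, the asparagine synthetase and a standard member of the response, was at 67756 and 54023 in NC against 59584 and 67756 with Valproate, with overlapping groups. Psph and Asns were chosen after their values were seen. With DZNep the means of Trib3 (963.5), Chac1 (167) and Vldlr (104) were the lowest of the other compounds, so a low value of these genes was also seen outside Valproate.

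Promoter sequences, from RefSeq on GRCm38.p6, were found for 18 of the 20 genes, in windows of 250 bases before to 50 after the start. The motif TGATGNAA, bound by dimers of C/EBP and ATF proteins, was searched on both strands and found in the windows of 5 of the 18 genes (27.8%), Trib3, Chac1, Nupr1, Asns and Slc7a11, beside 4.06% of 27025 promoters. The list was written from known Atf4 targets, so this share is a description of the list. The 250 bases before the Chac1 start are shown because the gene is among those that fell (chr2:119350992-119351241, plus strand), with the motif, read on the minus strand, in capitals. Its first base lies at -193.
Chac1: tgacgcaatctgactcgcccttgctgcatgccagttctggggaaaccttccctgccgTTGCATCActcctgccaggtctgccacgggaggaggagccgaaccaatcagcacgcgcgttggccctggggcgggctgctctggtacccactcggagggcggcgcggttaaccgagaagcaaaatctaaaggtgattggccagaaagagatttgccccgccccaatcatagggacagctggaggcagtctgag

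**Figure D3:**
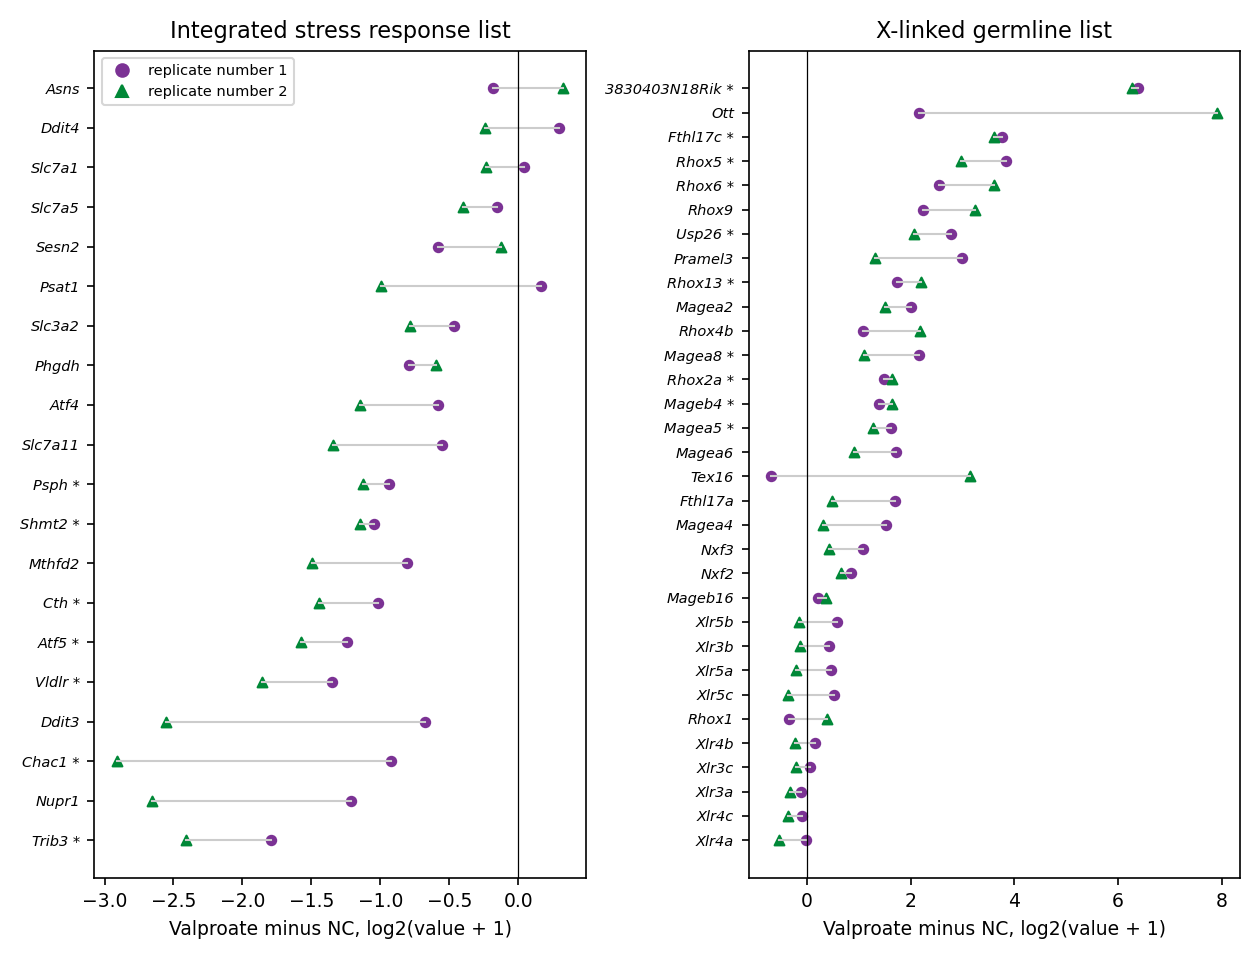
Change from NC to Valproate in log2(value + 1) within replicate number 1 (circles) and number 2 (triangles) for the 20 tested genes of the integrated stress response (left) and the 32 X-linked germline genes (right), with called genes marked by a star. Most stress response genes lie left of 0 with the larger fall in number 2, while the Rhox, Fthl17, Mage and Usp26 calls lie right of 0 in both numbers and the Xlr3, Xlr4 and Xlr5 copies around 0.

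The X chromosome carries clusters of genes that are expressed in germ cells and placenta, among them the Rhox homeobox genes, the Mage cancer-testis antigens and the Fthl17 and Xlr families. Of 32 genes listed for this group and tested, 10 rose (31.2%, beside 2.73% of all tested genes) and 0 fell, with a list median of 1.26. The list was written with earlier results of these data known and includes 3830403N18Rik, whose function is not known, so its share is a description only. Rhox5 (chromosome X, 37804842 to 37808876, plus strand), the founding gene of the Rhox cluster, was at 345 and 344 in NC against 4970 and 2710 with Valproate. Its log2 change of 3.41 (SE 0.24) had a BH-adjusted limma p of 7.55e-06. DZNep also held a high mean of Rhox5 (2744), inside the range of the 2 Valproate libraries. Rhox6 was at 162 and 64 in NC against 949 and 789 with Valproate, changing on the log2 scale by 3.07 (SE 0.74, BH-adjusted limma p 0.018). The call of Rhox6 was lost without Valproate replicate 1 (2.94), Valproate replicate 2 (3.21) or NC replicate 2 (2.41).

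The other calls of the group were 3830403N18Rik, Fthl17c, Rhox2a, Rhox13, Usp26, Magea5, Magea8 and Mageb4. Rhox2a was at 367 and 420 in NC against 1028 and 1317 with Valproate, and Usp26, a ubiquitin protease of the testis, at 39 and 46 and at 274 and 196. With DZNep the means of Rhox2a (1529.5) and Rhox13 (968) were above those with Valproate (1172.5 and 609.5). The DZNep means of Rhox6 (137.5) and Usp26 (34.5) were below those with Valproate (869 and 235). Rhox9, another germline homeobox gene, was at 248 and 85 in NC against 1165 and 815 with Valproate and narrowly missed the threshold (BH-adjusted limma p 0.0519). The calls of Rhox13 and Usp26 were lost without at least 1 library (Rhox13 without Valproate replicate 2 at 1.59, NC replicate 1 at 1.82 and NC replicate 2 at 2.12, and Usp26 without Valproate replicate 1 at 2.18 and NC replicate 1 at 2.31). Magea8 and Mageb4 were lost without Valproate replicate 1 (1.45 and 1.49), Magea8 also without NC replicate 1 (1.28) and Mageb4 without NC replicate 2 (1.37). Of the whole list, 5 genes were called without Valproate replicate 1 and 6 without NC replicate 2. The 9 copies of Xlr3, Xlr4 and Xlr5 had changes between -0.29 and 0.21, and limma called 0 of them (0 at an unadjusted p under 0.05). Rhox2a, Rhox9, Rhox13, Usp26 and the Mage and Xlr genes were chosen after their values were seen, and several of these families have near-identical copies. Over the whole X chromosome, 40 of 673 tested genes rose (5.94%) and 8 fell (1.19%), against 2.73% and 2.55% of all tested genes.

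Of 37 germline genes on the autosomes tested, 2 rose and 2 fell (5.41% each way, beside 2.73% and 2.55% of all tested genes), with a median of 0.22. Brdt, the testis-specific relative of the BET readers of acetylated histones, was at 44 and 44 in NC against 450 and 507 with Valproate, above all 20 other libraries. Its log2 change was 3.41 (SE 0.82, BH-adjusted limma p 0.0172), and the call was lost when any 1 of the 4 libraries was left out, at changes of 3.33 to 3.50. Rec8, the meiotic cohesin subunit, was at 730 and 424 in NC against 1794 and 1292 with Valproate (a log2 change of 1.45), and was lost without Valproate replicate 1 (1.21) or NC replicate 2 (1.06). Tex14 and Zcwpw1, needed in male meiosis, fell by 1.22 and 1.20 on the log2 scale, calls lost without Valproate replicate 2 for Tex14 (-0.87) and without Valproate replicate 1 (-1.06) or NC replicate 2 (-0.94) for Zcwpw1. Genes of the 2-cell embryo had a median of 1.38, with 22 of 22 changes positive, beside 8126 of 17275 over all tested genes. The 1 call (4.55%), Zfp750, was lost without Valproate replicate 2 (1.13) or NC replicate 1 (1.14). The shift of the list was larger within number 2 (1.99) than within number 1 (0.54).

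The starts of an X-linked and an autosomal germline gene that rose are set side by side to show their different CpG content, which is the substrate of DNA methylation. Of the 32 X-linked genes 29 had a promoter in the table, with a median of 7 CpG dinucleotides per 300 bases. Fewer than 80% of all tested genes had a promoter, so the list is not compared with them. The Fthl17c window held 8 and the Brdt window 23. The 250 bases before the start are given for Fthl17c (chrX:8976560-8976809, minus strand) and Brdt (chr5:107330944-107331193, plus strand), with CpG in capitals.
Fthl17c: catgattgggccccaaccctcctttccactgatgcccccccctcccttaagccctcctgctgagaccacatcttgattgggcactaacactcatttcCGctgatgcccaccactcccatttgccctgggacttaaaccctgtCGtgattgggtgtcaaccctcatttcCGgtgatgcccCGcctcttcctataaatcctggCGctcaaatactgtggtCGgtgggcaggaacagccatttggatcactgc
Brdt: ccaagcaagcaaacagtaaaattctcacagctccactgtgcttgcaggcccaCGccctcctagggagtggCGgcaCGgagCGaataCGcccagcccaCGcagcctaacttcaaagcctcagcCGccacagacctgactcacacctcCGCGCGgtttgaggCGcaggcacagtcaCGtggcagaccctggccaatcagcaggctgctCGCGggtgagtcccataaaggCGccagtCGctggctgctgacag

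WNT signalling stabilises beta-catenin, which acts with TCF and LEF proteins on targets such as Axin2, Sp5 and Lef1 and supports self-renewal of mouse embryonic stem cells. Of 27 genes of the pathway tested, 3 rose (Lef1, Sp5 and Sp8) and 3 fell (Cdx1, Fzd7 and Sfrp1), with a median of 0.51. The share was 11.1% each way, beside 2.73% up and 2.55% down over all tested genes. Sp5 (chromosome 2, 70474923 to 70477729, plus strand), a zinc finger repressor induced by WNT, was at 376 and 390 in NC against 2216 and 2141 with Valproate, above all 20 other libraries. Its log2 change was 2.50 (SE 0.32, BH-adjusted limma p 0.000415), and the call held under all 11 alternatives. Lef1 was at 29 and 42 in NC against 350 and 194 with Valproate, changing on the log2 scale by 2.86 (SE 0.39, BH-adjusted limma p 0.00066). Axin2, a general readout of the pathway chosen after its values were seen, was at 766 and 814 in NC against 1999 and 1588 with Valproate but was not called (BH-adjusted limma p 0.0564). Cdx1, a caudal homeobox gene, was at 1773 and 1006 in NC against 145 and 167 with Valproate, a call lost when any 1 of the 4 libraries was left out (changes of -3.50 to -2.68). Fzd7, a WNT receptor, fell from 1510 and 899 to 447 and 278. Sp8 was lost without NC replicate 1 (1.13) and Sfrp1 without any 1 of the 4 libraries (-1.31 to -0.89), and both were chosen after their values were seen. Without NC replicate 1 the list held 3 calls.

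The Sp5 window is shown because Sp5 rose and held its call, and because its 250 bases (chr2:70474673-70474922, plus strand) hold CTTTGAT, the core recognised by TCF and LEF proteins, in capitals. That motif, searched on both strands, was in 3.72% of all promoters of the same length. Its first base lies at -104, and the match is a description only.
Sp5: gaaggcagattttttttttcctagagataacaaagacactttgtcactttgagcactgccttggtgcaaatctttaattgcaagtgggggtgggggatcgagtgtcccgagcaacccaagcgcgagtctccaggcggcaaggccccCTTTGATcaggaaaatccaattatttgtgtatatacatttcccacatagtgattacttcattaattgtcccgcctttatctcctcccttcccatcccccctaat

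Retinoic acid receptors are ligand-dependent activators of differentiation genes, and Rara and Rarg are the main ones in undifferentiated cells. Of 22 tested genes of the pathway, 2 fell (9.09%, beside 2.55% of all tested genes) and 0 rose, with a median of -0.45. Rara was at 2941 and 2697 in NC against 997 and 1140 with Valproate, changing on the log2 scale by -1.40 (SE 0.11, BH-adjusted limma p 1.46e-05), a call that leaving out any 1 library did not end. Rarg was at 1789 and 1870 in NC against 106 and 305 with Valproate, changing on the log2 scale by -3.34 (SE 0.82, BH-adjusted limma p 0.02). The call of Rarg was lost without Valproate replicate 1 (-2.58), NC replicate 1 (-3.37) or NC replicate 2 (-3.31). Both receptors were lower with Valproate than in all 20 other libraries. Rarb, itself a target of the receptors and chosen after its values were seen, was at 138 and 105 in NC against 8 and 9 with Valproate but was not called (BH-adjusted limma p 0.131). Among the Hox genes 3 of 18 fell (Hoxa7, Hoxd9 and Hoxc5), none above 374 in NC. The share was 16.7%, beside 2.55% of all tested genes. Each of these calls was lost without Valproate replicate 1 (-1.52, -1.38 and -0.98) or NC replicate 1 (-1.86, -1.50 and -1.70). Hoxc5 was also lost without NC replicate 2 (-1.66).

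In BMP and TGF-beta signalling 2 of 24 genes rose (8.33%) and 4 fell (16.7%), with a median of 0.30. Of all tested genes 2.73% rose and 2.55% fell. Tgfbi, a secreted target of TGF-beta, was at 813 and 296 in NC against 63 and 16 with Valproate, and Smad6, an inhibitor of BMP signalling, at 414 and 334 and at 118 and 192. Bmp4 was at 8 and 9 in NC against 59 and 29 with Valproate, and Id2, a BMP target, at 39 and 63 and at 111 and 136. Id1, of the same family as Id2, was called down, so these Id genes moved in opposite directions. It was chosen after its values were seen, and its alternatives and exon overlaps were not followed. The calls of Bmp4, Id2 and Smad6 were lost without NC replicate 1 (changes of 2.08, 0.95 and -1.14), and also without Valproate replicate 1 for Bmp4 (1.66) and Smad6 (-0.95) and without Valproate replicate 2 for Id2 (1.15).

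Some genes that fold, cross-link and modify collagen fell, and some actin-binding genes rose. Of 24 collagen-modifying genes tested, 4 fell (16.7%) and 1 rose (4.17%), with a median of -0.53. The median was -0.56 within number 1 but only -0.08 within number 2. Of all tested genes 2.55% fell and 2.73% rose. Serpinh1, the collagen chaperone HSP47, was at 4328 and 3096 in NC against 941 and 847 with Valproate, changing on the log2 scale by -2.03 (SE 0.27, BH-adjusted limma p 0.000477). Fkbp10, a prolyl isomerase of collagen folding, was at 58 and 89 in NC against 12 and 33 with Valproate, and Loxl3, a lysyl oxidase, at 91 and 75 and at 21 and 32. The calls of Fkbp10 and Loxl3 were lost without Valproate replicate 1 (-1.10 and -1.34), and also without NC replicate 2 for Fkbp10 (-1.49) and NC replicate 1 for Loxl3 (-1.50). P3h3, a prolyl hydroxylase chosen after its values were seen, was the fourth to fall and was lost without Valproate replicate 1 (-0.96), NC replicate 1 (-1.26) or NC replicate 2 (-1.20). Loxl4, a lysyl oxidase, rose, a call that was lost when any 1 library was left out (2.87 to 3.60). The list held 2 calls without Valproate replicate 1, 3 without NC replicate 1 and 2 without NC replicate 2. Collagen and matrix genes themselves had 3 calls up (9.09%) and 0 down of 33. Among these calls was Col18a1, the precursor of endostatin, at 3185 and 3274 in NC against 8389 and 8118 with Valproate.

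Of 28 actin cytoskeleton genes 5 rose (17.9%) and 1 fell (3.57%), with a median of 0.29. Of all tested genes 2.73% rose and 2.55% fell. Gsn, which severs actin filaments and is a classical target of deacetylase inhibitors, was at 77 and 47 in NC against 841 and 473 with Valproate. Its log2 change was 3.37 (SE 0.39, BH-adjusted limma p 0.000178). The intermediate filament gene Vim fell from 8931 and 13630 to 3403 and 6340, a call lost without Valproate replicate 1 (-0.80) or NC replicate 2 (-0.94). Further rises, of Tpm2, Cnn2 and Zyx, had changes of 1.20 to 1.23, and each was lost without at least 2 of the 4 libraries (Tpm2 at 1.17 and 1.04 without Valproate replicate 2 and NC replicate 2, Cnn2 at 0.64 and 0.80 without Valproate replicate 1 and NC replicate 1, Zyx at 1.11, 1.29 and 0.86 without Valproate replicate 1, Valproate replicate 2 and NC replicate 2). Zyx was chosen after its values were seen. The list held 3 calls without either Valproate library and 2 without NC replicate 2.

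Some of the rising genes are also markers of fibroblasts, which serve as feeder cells in many stem cell cultures. Of 11 fibroblast genes tested, 3 rose (Thy1, Fbln2 and Lum) and 0 fell, with a median of 0.47. The rising share was 27.3%, beside 2.73% of all tested genes. Both NC libraries listed Lum at 0, while it was at 197 and 331 with Valproate, and its call was lost when any 1 library was left out. Lum was at 0 in 19 of the 22 libraries, and at 346 in CPTH2 replicate 1 against 0 in CPTH2 replicate 2. The other tested genes of the list went in both directions without a call. The collagens Col1a1 (24 and 24 in NC, 14 and 25 with Valproate) and Col1a2 (14 and 31, and 20 and 41) were low in all 4 libraries, while Col3a1 was at 4 and 743 in NC against 307 and 722 with Valproate. Dcn was at 0 in all 4. Postn, a secreted matrix protein, was at 474 and 559 in NC against 658 and 0 with Valproate, and Pdgfrb, a growth factor receptor of mesenchymal cells, at 217 and 108 and at 59 and 54. The sum of the 5 fixed fibroblast markers was 524 and 625 in NC and 1050 and 369 with Valproate, and 12 to 1158 in the other compounds. Postn and Thy1 made up most of that sum, and its low value in Valproate replicate 2 goes with the 0 of Postn. The 4 markers of primitive endoderm summed to 413 and 318 in NC and to 347 and 422 with Valproate, but they moved in opposite directions. Pdgfra rose from 22 and 19 to 88 and 78 (a log2 change of 1.97, BH-adjusted limma p 0.00546), while Gata4 was at 156 and 154 in NC against 97 and 108 with Valproate and was not called. The part of other cells in these rises was not tested.

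The deacetylases and the genes known to respond to their inhibition were examined next, and all-gene shares of 2.73% up and 2.55% down apply to the lists below. Of 18 histone deacetylase and sirtuin genes tested, 0 were called by limma with BH adjustment (5 at an unadjusted p under 0.05), and their changes ran from -0.73 to 1.27. Hdac1 was at 8188 and 9211 in NC against 8862 and 9304 with Valproate, Hdac2 at 5685 and 5871 and at 8171 and 6170, and Hdac3 at 2647 and 3159 and at 2725 and 2784. Of 28 genes of the corepressor complexes 0 were called by limma as well (7 at an unadjusted p under 0.05), and of 11 acetyltransferases only Kat2b, with a change of -1.002 at the edge of the fold threshold, lost under 6 of 11 alternatives, among them without Valproate replicate 2 (-0.96) and NC replicate 1 (-0.86). Among 20 genes known to respond to deacetylase inhibitors in other cells, 2 rose (Gsn and Clu, 10% up) and 0 fell, with a median of 0.16. Clu, the secreted chaperone clusterin, was at 30 and 66 in NC against 261 and 289 with Valproate, changing on the log2 scale by 2.60 (SE 0.31, BH-adjusted limma p 0.000257). Cdkn1a, the cyclin-dependent kinase inhibitor p21, was at 6054 and 5364 in NC against 8038 and 7963 with Valproate. Its change of 0.49 (SE 0.10) had a BH-adjusted limma p of 0.00793, and both Valproate libraries lay above the 20 others, but the fold stayed under 2.

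Of 20 pluripotency genes tested, 2 rose (Dppa3 and Utf1, 10% up against 2.73% of all tested genes) and 0 fell, with a median of 0.22. Pou5f1 was at 28606 and 29454 in NC against 25663 and 27731 with Valproate, Nanog at 44793 and 59405 and at 49312 and 75957, and Sox2 at 14112 and 10935 and at 17988 and 16436. None of these 3 was called (BH-adjusted limma p 0.46, 0.748 and 0.13). Utf1, a chromatin-bound factor of stem cells, was at 1283 and 1467 in NC against 3558 and 3309 with Valproate, changing on the log2 scale by 1.32 (SE 0.23, BH-adjusted limma p 0.0026), and was higher with DZNep (a mean of 5186). Genes of G1 control (22 tested) and of mitosis and DNA replication (34 tested) had 0 calls by limma with BH adjustment (8 and 5 at an unadjusted p under 0.05), with medians of -0.07 and -0.20. Of 20 p53 targets only Pmaip1, the pro-death protein Noxa, was called, at 139 and 107 in NC against 635 and 402 with Valproate.

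Of 14 neural progenitor genes tested, 13 had negative changes, with a median of -0.84, and 1 was called (7.14%). Over all tested genes 8978 of 17275 changes were negative, and 2.55% were called down. Sox1, the earliest marker of neurectoderm, was at 742 and 514 in NC against 252 and 283 with Valproate, changing on the log2 scale by -1.21 (SE 0.15, BH-adjusted limma p 0.000366), and the change was below 2-fold without NC replicate 1 (-0.94). Among 45 neuronal and synaptic genes 2 rose and 2 fell (4.44% each way). Map2, the dendritic microtubule protein, was at 108 and 73 in NC against 420 and 339 with Valproate, above all 20 other libraries, while Cplx1, a regulator of vesicle fusion, was at 274 and 243 and at 63 and 61. Nfasc, a neuronal adhesion molecule of axon segments, was at 34 and 60 in NC against 450 and 333 with Valproate, changing on the log2 scale by 3.07 (SE 0.32, BH-adjusted limma p 0.000116). Ion channel and receptor genes had 1 call up (2.56%) and 3 down (7.69%) of 39, with Grm4, a metabotropic glutamate receptor, at 520 and 343 in NC against 67 and 97 with Valproate.

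In the metabolic pathways that valproate is known to touch, each list held 2 or 3 calls, and the shares are read beside 5.28% of all tested genes (2.73% up and 2.55% down). Of 12 genes of GABA synthesis, transport and breakdown 1 rose and 2 fell (25% called). Gad2, a GABA-synthesising enzyme, was at 230 and 152 in NC against 57 and 72 with Valproate. The call of Gad2 was lost without Valproate replicate 1 (-1.36) or NC replicate 1 (-1.23). Fatty acid oxidation had 2 calls up and 1 down of 44 (6.82% called), with a median of 0.01. Cpt1b, the muscle isoform of the enzyme that admits fatty acids to mitochondria, was at 181 and 146 in NC against 20 and 9 with Valproate, but 93.7% of its 31-base stretches occur in other genes. The isoform Cpt1a was at 7813 and 6428 in NC against 4075 and 3185 with Valproate, changing on the log2 scale by -0.98 (SE 0.15, BH-adjusted limma p 0.00123), just under the fold threshold, and it was called without Valproate replicate 1 (-1.15) or NC replicate 2 (-1.12). Acsl6, which activates long fatty acids, rose from 66 and 117 to 751 and 417. Cholesterol synthesis had 2 calls down (Tm7sf2 among them) and 0 up of 24 (8.33% called), with 21 negative changes and a median of -0.29, and Tm7sf2 was lost without Valproate replicate 2 (-0.91) or NC replicate 1 (-0.98). Folate and one-carbon genes had 3 calls down and 0 up of 25 (12% called, among them Cth and Shmt2, counted above), and inositol genes 2 up and 0 down of 22 (9.09% called). In the interferon list 3 of 22 genes rose (13.6%). Bst2, the antiviral tetherin, was at 760 and 615 in NC against 2964 and 1829 with Valproate, lost without Valproate replicate 1 (1.42) or NC replicate 2 (1.61). Both NC libraries listed Mx2 at 0, while it was at 32 and 30 with Valproate, lost when any 1 library was left out.

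**Figure D4:**
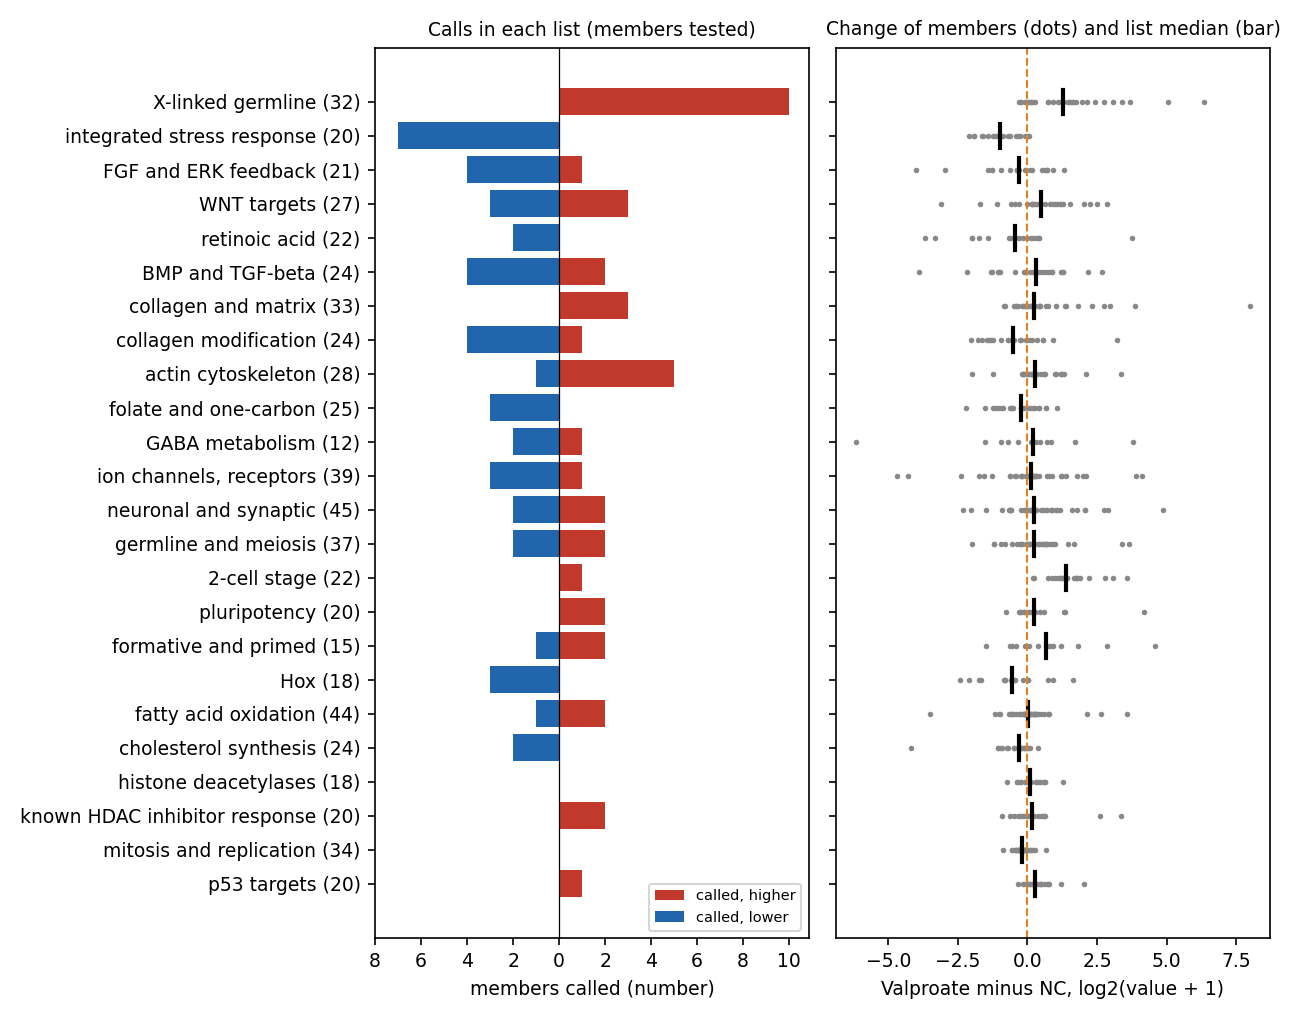
For 24 gene lists, the number of members called higher (red) and lower (blue) with Valproate than in NC (left, members tested in parentheses) and the change of each tested member in log2(value + 1) (right, grey dots) with the list median (black bar) and the median of all tested genes (dashed line at -0.02). The X-linked germline list has 10 calls up and 0 down, the stress response list 7 down and 0 up, and the deacetylase and mitosis lists have 0 calls.

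Some of the called genes stood next to each other when the tested genes were ordered along the chromosome, with genes not tested passed over. How often such runs arise anyway was not tested. Runs of 3 adjacent called genes in 1 direction included Kirrel2, Nphs1 and Nphs1os on chromosome 7 (down), Fthl17c, Fthl17d and Fthl17f and also Rhox2h, Rhox5 and Rhox6 on the X chromosome (up), and Prr23a1, Prr23a2 and Prr23a3 on chromosome 9 (up). Rhox2h and Prr23a2 were lost when any 1 of the 4 libraries was left out (2.02 to 2.83 and 2.23 to 2.39), and Prr23a3 without Valproate replicate 2 (0.85) or NC replicate 1 (0.99). Nphs1os, Fthl17f, Rhox2h and the Prr23a genes were chosen after their values were seen. The members of the Fthl17, Rhox and Prr23a runs are related copies and may share reads. The 250 bases before the RefSeq start of Kirrel2 are shown because they face the falling neighbour Nphs1 (chr7:30457516-30457765, minus strand), and they hold 4 CpG, in capitals. The RefSeq start lies within the longer gene model of GENCODE, so that part of the stretch is also inside that model.
Kirrel2: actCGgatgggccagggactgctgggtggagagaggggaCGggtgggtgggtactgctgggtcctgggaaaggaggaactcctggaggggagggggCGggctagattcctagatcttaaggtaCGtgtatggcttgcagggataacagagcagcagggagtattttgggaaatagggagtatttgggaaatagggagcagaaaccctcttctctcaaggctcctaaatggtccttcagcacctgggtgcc

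Valproate was also compared with the mean of the 9 other compounds, a reference that uses no NC library. By the same thresholds 1337 genes were called (7.74% of those tested), 807 up (4.67%) and 530 down (3.07%). Of the 912 genes called against NC, 705 were called in the same direction here (387 up and 318 down), and for 403 of these (245 up and 158 down) both Valproate libraries lay beyond all 20 others, beside 9.65% of tested genes (5.92% above and 3.73% below). Both comparisons use the same 2 Valproate libraries and the same fit, so neither count is separate evidence for the calls. Fbln2 differed from the other compounds by 4.09 (SE 0.26), Thy1 by 4.36 (SE 0.31), Fgf17 by -3.76 (SE 0.25) and Etv4 by -3.86 (SE 0.33). Their BH-adjusted limma p were 7.8e-07 for Fbln2, 2.4e-06 for Thy1, 1.47e-06 for Fgf17 and 7.37e-06 for Etv4. Dusp6 differed by -1.85 (BH-adjusted limma p 5.85e-06). Serpinh1, Shmt2, Utf1, Sox1 and Gad2 were not called against the other compounds, with differences of -0.98, -0.77, 0.80, -0.57 and -0.72. Also not called were Bmp4, Id2, Tex14, Smad6, Cdx1, Tm7sf2, Ier3, Psph, Atf3, Kat2b and Zfp750. Cdx1 differed by -1.32 (BH-adjusted limma p 0.175), and its mean with DZNep (76.5) was below that with Valproate (156). The other compounds reached similar values for some of these genes. The lowest mean of Serpinh1 was with OICR (348), and that of Shmt2 with DZNep (6750). The count of calls against the other compounds was 821 without Valproate replicate 1.

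**Figure D5:**
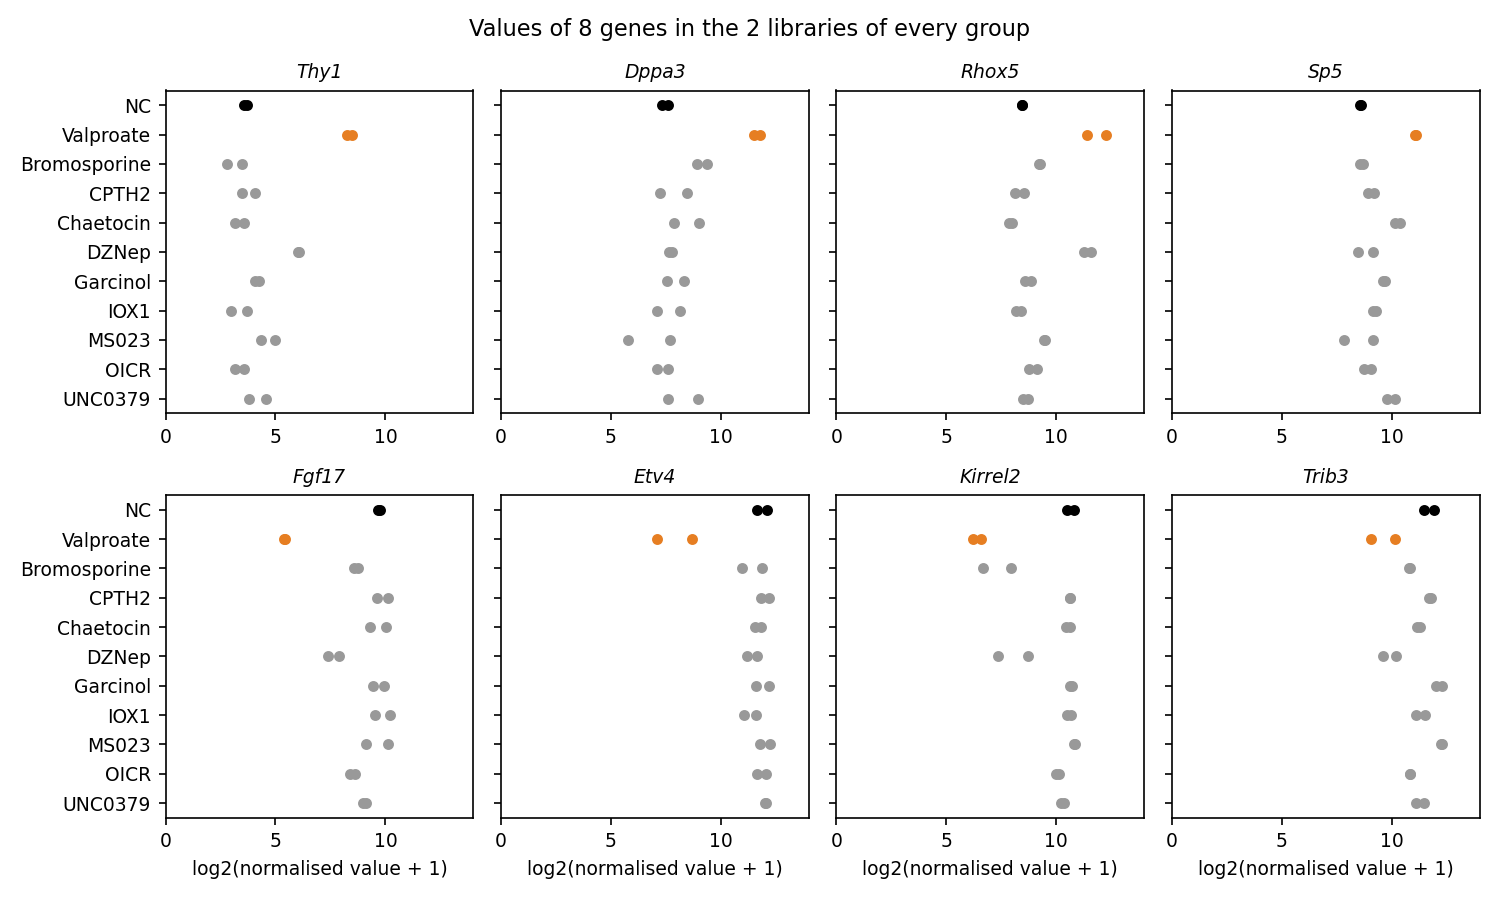
Values of 8 genes as log2(normalised value + 1) in the 2 libraries of each of the 11 groups, with NC in black, Valproate in orange and the 9 other compounds in grey. Thy1, Dppa3 and Sp5 are highest and Fgf17, Etv4 and Kirrel2 lowest with Valproate, while DZNep comes close for Rhox5 and Trib3.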

How the data were processed

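Per the labels, oligo-dT selected RNA of E14 cells was sequenced. The deposited values are scores, here normalised read counts that the authors rounded to whole numbers. The submitters' processing notes name bcl2fastq, Bowtie2 2.2.5, RSEM and mm10, and the study's methods, which do not name the compounds, describe EDASeq at its full setting. That step forces the libraries to 1 distribution and would hide a shift shared by most genes. No count test was run.

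Tests used limma 3.58.1 under R 4.3.3 on log2(value + 1) (11 group means, 22 libraries, 11 residual degrees of freedom, eBayes with trend). On simulated data for this comparison (17275 genes), 92 of 100 genes changed by a log2 of 2 and 97 of 100 changed by 3 were called, with 10 false calls. The changed genes were drawn only from those whose mean log2 value was above that of 100. Noise was normal and independent, and no other group differed. Recovery of genes with lower values or with values of 0 was not simulated. Two-sided p-values were adjusted over all tested genes by the Benjamini-Hochberg method. Positions, strand and shared 31-base stretches came from GENCODE M21 (97.1% of tested genes matched), promoters from RefSeq (GRCm38.p6), and plots from matplotlib. Where windows were found for under 80% of a set (for example 335 of 471 rising calls), promoter properties were not compared. The members, gene lists and rule for named genes were chosen with earlier results of these data known. The rule took the 12 largest rises and falls among calls above 0 in all 4 libraries, with a group mean of at least 100 and a change over 2-fold within both numbers, up to 4 called genes per list, and fixed genes. Some genes that the rule names are not reported here. Gene models named only by number were left out except 3830403N18Rik. A second deposited table held the authors' group means and was not used. Alternatives were a pseudocount of 10, no filter, genes above 0 in all libraries, median-ratio rescaling, the replicate block, each library left out, a fit of 4 libraries and the other compounds as reference.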

Additional observations from a re-analysis of the deposited data

How the results depend on the processing

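With the replicate number as a block, Valproate against NC gave 1487 calls (773 up and 714 down), all of the 912 among them, and against the other compounds 1683. Same-numbered deviations correlated at 0.0535 to 0.298 over 55 pairs of groups (0.183 for Valproate with NC) and exceeded 0.1 in 51. All were above 0, but the labels do not say what a number marks, and the pairing is not settled. The fit of only the 4 libraries gave 75 calls. Leaving out 1 library gave 514 to 798 calls against NC and 821 to 1303 against the other compounds. The rising share of calls against NC was 51.6%, and it was 57.9% with a pseudocount of 10, 44.6% without Valproate replicate 2 and 60.4% against the other compounds. Of 95 called genes named in the text (Id1 was not followed), Thy1, Dppa3, Fgf17, Kirrel2, Nphs1 and Sp5 kept their call under every alternative. None of the 95 reversed. The fit of 4 libraries lost 86 of the 95, leaving out 1 library 26 to 37, the other compounds as reference 16, median-ratio rescaling 3 (Psph, Kat2b and Sfrp1), a pseudocount of 10 2 (Kat2b and Prr23a3), and no filter and the block 0. With genes above 0 in all 22 libraries, 90 of the 95 could be computed and kept their call. Small changes of genes that were not called turned for Hdac1 (-0.0206 without NC replicate 1, 0.1492 without NC replicate 2), Hdac2 (-0.0854 against the other compounds), Hdac3 (0.0573 without NC replicate 2, -0.1977 without NC replicate 1), Nanog (-0.065 without Valproate replicate 2, 0.5582 without Valproate replicate 1), Asns (-0.02 without Valproate replicate 2 and -0.0927 without NC replicate 2, 0.2341 without NC replicate 1) and Egr1 (0.2224 without NC replicate 2, -0.3081 without NC replicate 1 and 0.3446 against the other compounds). The median of collagen-modifying genes was 0.0601 against the other compounds. Rhox9 was called under 4 of 11 alternatives, Axin2 and Cpt1a under 2 and Rarb and Spry2 under 1. The block is among these for Rhox9, Axin2 and Rarb. The cause was not tested. Low values have unknown depth behind them, and genes listed at 0 have no detection limit here.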
